A study of Mus musculus with 2 samples.

Results

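The miR-26 genes of the mouse are Mir26a-1, Mir26a-2 and Mir26b, and all 3 were found by gene identifier among the 2202 annotated microRNA genes of both count tables. Small RNA was sequenced from total RNA of the gastrocnemius, a large calf muscle, of female mice of the strain B6CASTF1/J, a first-generation hybrid of C57BL/6J and CAST/EiJ, aged 25 days. The 2 libraries are biological replicates 1 and 2 of 1 group. Per the labels, the females carry separate numbers and 1 shared donor identifier, so errors here measure the spread between these 2 libraries. The labels name no treatment and the design contrasts no genotype or age. Whole muscle was used, so fewer cells of a type and less RNA per cell cannot be told apart.

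Each miR-26 gene lies inside a gene for a small phosphatase that removes phosphates from the carboxy-terminal domain of RNA polymerase II. Ctdspl hosts Mir26a-1, Ctdsp2 hosts Mir26a-2 and Ctdsp1 hosts Mir26b. Both Mir26a copies yield the same guide strand, miR-26a-5p. A microRNA guides Argonaute to matching sites in mRNAs, mainly through its seed, bases 2 to 8 from the 5′ end. miR-26a is known in muscle for repressing Ezh2, a histone methyltransferase that holds back differentiation of muscle precursors, and miR-26 and its host phosphatases are known as brakes on the cell cycle.

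The mature sequences are shown because they decide which reads can be told apart; they are from RefSeq (GRCm38.p6, the assembly also called mm10), with the seed in capitals. The 5′ arms, from which the main microRNAs come, read as follows.
miR-26a-5p: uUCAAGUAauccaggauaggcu
miR-26b-5p: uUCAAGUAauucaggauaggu
All 3 genes share the seed UCAAGUA, and among 1738 mature entries of 1058 genes in RefSeq only these 3 genes held it. Counted from the 5′ end, miR-26b-5p differs from miR-26a-5p by C11U and C21U over the 21 bases they have in common, and miR-26a-5p is 1 base longer, at 22.

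The 3′ arms differ between all 3 genes.
miR-26a-1-3p: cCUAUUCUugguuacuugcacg
miR-26a-2-3p: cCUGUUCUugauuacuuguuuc
miR-26b-3p: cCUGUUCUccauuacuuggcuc
The 3′ arms of the Mir26a copies differ at 6 of 22 bases, A4G being the one inside the seed. Those of Mir26a-2 and Mir26b differ at 4 bases, none of them in the seed, and those of Mir26a-1 and Mir26b at 8.

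The whole hairpins show where the identical stretch sits, with the mature arms in capitals.
Mir26a-1: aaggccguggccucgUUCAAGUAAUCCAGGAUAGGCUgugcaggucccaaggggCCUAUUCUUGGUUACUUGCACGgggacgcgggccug
Mir26a-2: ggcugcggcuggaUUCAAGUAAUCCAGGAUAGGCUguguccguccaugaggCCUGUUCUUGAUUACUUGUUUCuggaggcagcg
Mir26b: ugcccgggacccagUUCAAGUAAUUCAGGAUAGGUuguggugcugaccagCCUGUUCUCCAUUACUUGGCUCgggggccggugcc
The Mir26a copies share 1 unbroken stretch of 25 bases, uucaaguaauccaggauaggcugug, which holds all of miR-26a-5p and 3 bases beyond it. The longest stretch Mir26b shares is 11 bases with Mir26a-1 and 10 with Mir26a-2. Outside the family, no annotated hairpin shared more than 11 bases in a row with any of the 3.

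Mir26a-1 (ENSMUSG00000065513.1) spans chr9:119031796-119031885 on the forward strand of mm10. It lies in intron 5 of the 7 introns of the principal Ctdspl transcript. That intron is 3283 bases long and leaves 1543 bases before the hairpin and 1650 after it. Mir26a-2 (ENSMUSG00000065430.1) spans chr10:126995530-126995613, also forward, in intron 5 of 7 of the principal Ctdsp2 transcript, with 1621 bases before it and 241 after it. The last base of this hairpin, 126995613, is also the annotated start of the shorter Ctdsp2 transcripts Ctdsp2-201 and Ctdsp2-203. Mir26b (ENSMUSG00000065468.1) spans chr1:74394310-74394394, forward, in intron 4 of 6 of the principal Ctdsp1 transcript. That intron is only 564 bases long, with 234 bases before the hairpin and 245 after it. In each host, then, the hairpin lies in the third intron from the 3′ end of the principal transcript.

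The hairpins are alike in size and predicted stability. Mir26a-1 has 90 bases, 60.0% of them G or C, and a predicted minimum free energy of -49.4 kcal/mol. Mir26a-2 has 84 bases, 53.6% G or C and -44.5 kcal/mol, and Mir26b has 85 bases, 58.8% G or C and -43.5 kcal/mol.

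The libraries differed in depth. Replicate 1 held 1573213 counts on the strand of microRNA genes and replicate 2 held 5429127. Levels are given as CPM, the counts of a gene for every 1000000 of these. A count of 0 allows up to 3 counts, which is 1.91 CPM in replicate 1 and 0.553 CPM in replicate 2. Reads that aligned to several places were tallied apart and given to no gene; they made up 69.1% ± 0.794 (SD, n = 2) of all reads, against 21.9% ± 0.832 for reads on microRNA genes. Of 9 listed skeletal muscle genes all were detected at 2 CPM or more in both libraries, beside 324 of all 2202 genes. Mir133a-2 was close to this limit, at 2.03 CPM in replicate 2. Mir206, specific to skeletal muscle, had 34864 CPM in replicate 1 and 72482 in replicate 2. All intervals cover the counting error of reads only and leave out the spread between libraries. Reads copied by PCR are not independent molecules, so the intervals can be too narrow for counts of molecules.

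Mir26b was among the most abundant microRNA genes of the muscle, and both Mir26a copies were counted far lower. Mir26b had 44934 counts in replicate 1, which is 28562 CPM, and 147232 counts in replicate 2, which is 27119 CPM. The mean was 27840 CPM ± 1020 (SD, n = 2), and Mir26b ranked 10 of the 520 genes with a count in replicate 1 and 11 of 614 in replicate 2. It held 2.86% of the counts of replicate 1 (exact Clopper-Pearson 95% interval 2.83 to 2.88) and 2.71% of those of replicate 2 (2.70 to 2.73). Its level in replicate 1 was 1.05 times that in replicate 2, whose depth was greater.

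Mir26a-2 had 55 counts in replicate 1, or 35.0 CPM (exact Poisson 95% interval 26.3 to 45.5), and 222 in replicate 2, or 40.9 CPM (35.7 to 46.6). Its mean was 37.9 CPM ± 4.19 (SD, n = 2), at ranks 216 and 205. Mir26a-1 had 11 counts in replicate 1, or 6.99 CPM (3.49 to 12.5), and 17 in replicate 2, or 3.13 CPM (1.82 to 5.01). Its mean was 5.06 CPM ± 2.73, at ranks 288 and 310. All 3 genes exceeded the limit that a count of 0 allows in both libraries, and Mir26a-1 did so by the smallest margin.

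The order was the same in each library, Mir26b above Mir26a-2 above Mir26a-1, and no interval of one gene overlapped that of the next. None of the 3 genes had a read on the opposite strand in either library, and the counts that ignore strand were identical to the sense counts. Their counts therefore do not depend on telling the strands apart.

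**Figure D1:**
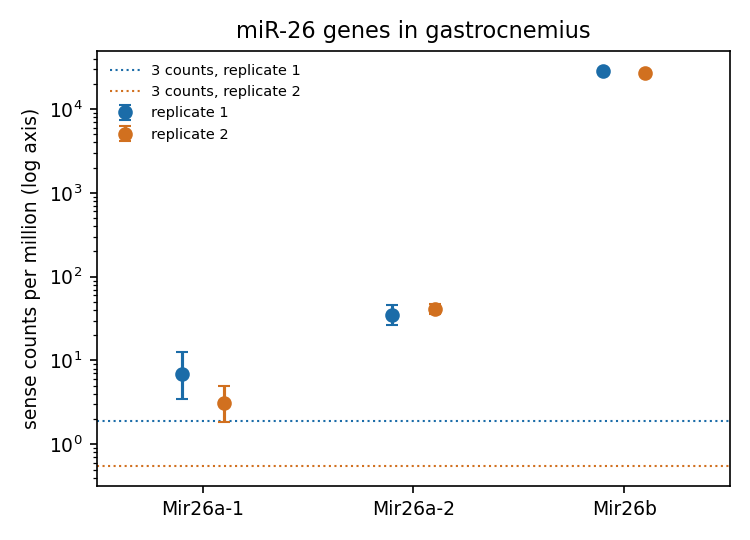
Sense counts in CPM (log axis) of Mir26a-1, Mir26a-2 and Mir26b in replicates 1 and 2; points are single libraries, bars are exact Poisson 95% intervals from counts, and dotted lines mark the level of 3 counts in each library. Mir26b sits at 28562 and 27119 CPM, Mir26a-2 at 35.0 and 40.9 CPM, and Mir26a-1 at 6.99 and 3.13 CPM.

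The single-copy gene was then compared with the copies summed. In replicate 1, Mir26b had 681 counts for each count of the Mir26a copies together (exact 95% interval 535 to 880), and in replicate 2 it had 616 (543 to 702). The mean log2 ratio was 9.33 ± 0.0964 (SD, n = 2), so the ratio exceeded the spread between the libraries many times over. That spread does not cover reads that fit both Mir26a copies, since reads aligned to several places were given to no gene. The ratio was given no test, since an exact sign-flip permutation over 2 libraries cannot go below a two-sided p of 0.5. Mir26b held 99.85% of the counts on the 3 genes in replicate 1 (interval 99.81 to 99.89) and 99.84% in replicate 2 (99.82 to 99.86). Per 1000 hairpin bases, Mir26b had 327534 CPM ± 12004, Mir26a-2 had 451 ± 49.9 and Mir26a-1 had 56.2 ± 30.3 (SD, n = 2), so hairpin length did not change the order.

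The counts of the copies also differed from each other. A read that holds miR-26a-5p alone fits both copies, so these counts do not compare the copies by that arm. Mir26a-2 had 5 counts for each count of Mir26a-1 in replicate 1 (exact 95% interval 2.59 to 10.6) and 13.1 in replicate 2 (7.97 to 22.8). It held 83.3% of the Mir26a counts in replicate 1 (72.1 to 91.4) and 92.9% in replicate 2 (88.9 to 95.8). Between the libraries the balance of the copies gave p = 0.0277 (two-sided Fisher's exact test, unadjusted, added after the data were examined). This compares 2 libraries of 1 group, and the intervals of the share overlap. A sign-flip permutation over 2 libraries cannot go below a p of 0.5, so no difference in balance is concluded. The larger share of Mir26a-2 held in both.

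How much of each hairpin a read can place was measured from the annotated sequences. Of the windows of 22 bases along a hairpin, 4 of 69 in Mir26a-1 and 4 of 63 in Mir26a-2 also occurred in the other copy, and these are the windows that start at the first 4 bases of miR-26a-5p. With windows of 18 bases the numbers were 8 of 73 and 8 of 67. None of the 64 windows of 22 bases of Mir26b, nor of its 68 windows of 18, occurred in another annotated hairpin. Over the annotated transcripts of 55341 gene names, miR-26a-5p occurred in the 2 Mir26a hairpins, while miR-26b-5p and each of the 3 miR-26 3′ arms occurred in 1 gene each. The reads tallied as aligned to several places numbered 3.21 for each count on a microRNA gene in replicate 1 and 3.09 in replicate 2. Their genes are not recorded, so the counts of the copies cannot be taken as the level of miR-26a-5p. The part that unplaced reads have in the gap between Mir26b and the copies was not tested, and the arm from which the counted Mir26a reads came is not given.

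**Figure D2:**
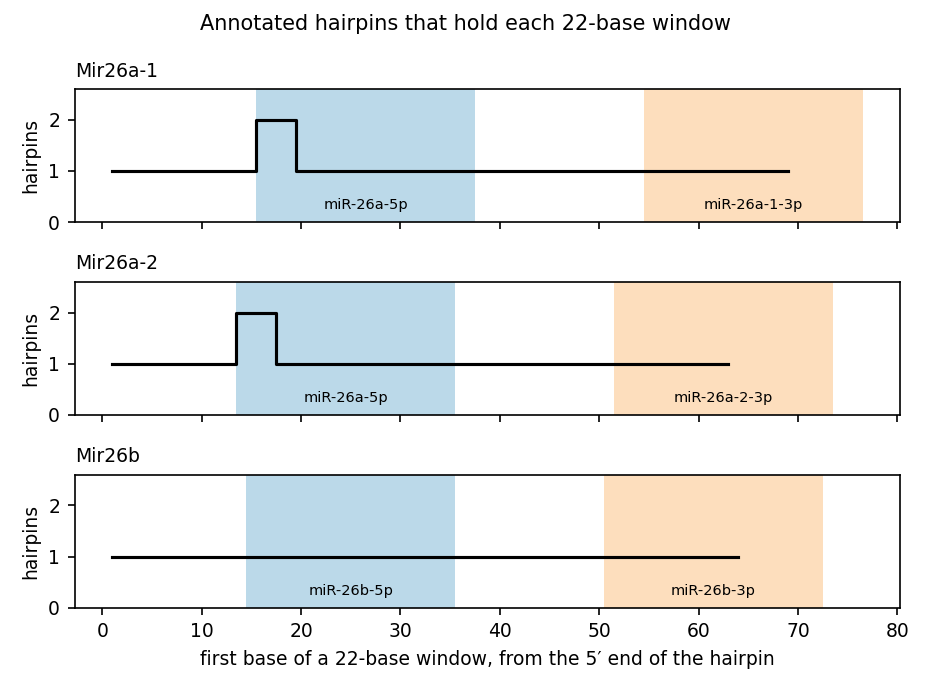
For each miR-26 hairpin, the number of annotated microRNA hairpins (y axis) that hold the 22-base window starting at each base (x axis, from the 5′ end of the hairpin); shading marks the bases of the mature arms. The 4 windows that start at the first bases of miR-26a-5p occur in both Mir26a hairpins, and every window of Mir26b occurs in 1 hairpin.

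The same layout, copies of 1 mature microRNA beside a single-copy relative, occurs in other families, and the count of the copies was set beside theirs. The list held 14 families with 34 multi-copy genes and 26 single-copy relatives, and it was drawn up with earlier results of these data known. RefSeq sequences placed an arm identical to that of another gene in 29 of the 31 multi-copy genes with an entry and in none of the 24 single-copy genes with one. The measure was the log2 ratio of the mean CPM of the single-copy genes to the mean CPM of the multi-copy genes. It was 10.4 in replicate 1 and 10.3 in replicate 2 for miR-26. Over the other 13 families it ran from -5.12 to 8.12 with a median of 3.63, and 11 of them were above 0. Among the 11, miR-19 rested on few counts, with a log2 ratio of 0 in replicate 1 and 2.17 in replicate 2. Its single-copy gene Mir19a had 1 and 13 counts.

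The next family after miR-26 was that of miR-1 and miR-206, in which Mir206 at 53673 CPM stood beside Mir1a-1 at 14.9 and Mir1a-2 at 348 CPM; both microRNAs of this family are typical of striated muscle. When strand was ignored, this family stood above miR-26, at 12.7 against 10.3. The lowest was miR-92, in which the copies Mir92-1 and Mir92-2, at 401 and 14.1 CPM, stood above the single-copy Mir92b at 6.74 CPM. Among the listed single-copy genes Mir26b ranked 4 of 26 by mean CPM. Among the multi-copy genes Mir26a-2 ranked 19 and Mir26a-1 ranked 27 of 34, where the median was 63.2 CPM. The miR-26 ratio thus combined a high single-copy gene with copies below the middle of their class.

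**Figure D3:**
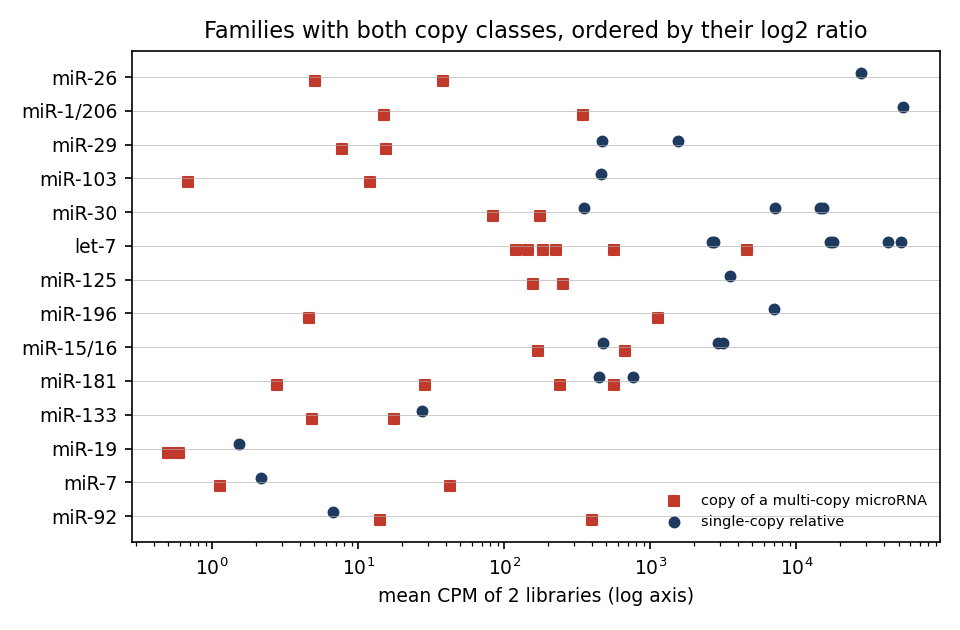
Mean CPM of both libraries (log axis) of each gene in 14 families that hold copies of 1 mature microRNA (squares) and single-copy relatives (circles), ordered from the highest to the lowest log2 ratio. In the top row Mir26b lies at 27840 CPM and the Mir26a copies at 5.06 and 37.9 CPM; in the bottom rows, miR-7 and miR-92, the copies reach above the single-copy gene.

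The Mir26a copies were also set beside all genes that share arms in the same way. Of 2202 counted genes, 324 were detected in both libraries. By symbol, 1018 of the 2202 matched a RefSeq microRNA. In 57 of these 1018, as in both Mir26a copies, 1 arm was identical to that of another gene and 1 was the gene's own. Of the 57, 35 (61.4%) were detected in both libraries, with a median of 47.5 CPM, and Mir26a-2 ranked 20 and Mir26a-1 32 among them. Among these 35, 3 reached 1000 CPM. Of the 924 genes with no arm shared, like Mir26b, 249 (26.9%) were detected, with a median of 176 CPM, and 64 reached 1000 CPM. Of the 37 genes with every arm shared, 5 (13.5%) were detected, none at 1000 CPM. Genes detected in such a class are a selected part of it, so these medians describe the detected genes only.

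Mir26b was also high among microRNAs that lie inside protein-coding genes. In the annotation, 760 microRNA genes lay in an intron of the principal transcript of a protein-coding gene on the same strand, 116 of them detected in both libraries. By mean CPM among all 760, Mir26b ranked 4, Mir26a-2 ranked 65 and Mir26a-1 ranked 101. Among the 116 detected, Mir26a-1 ranked 100 and the other ranks were the same. Under both stricter definitions tried, which ask that no exon of a coding host transcript or of any host transcript be touched, Mir26b ranked 5 and Mir26a-2 fell out of the class. Under the definition used, only Mir378a in Ppargc1b, Mir126a in Egfl7 and Mirlet7g in Wdr82 were higher than Mir26b. Intronic genes held 36.3% of the counts of replicate 1 and 37.8% of those of replicate 2, and Mir26b made up 7.86% and 7.18% of that. Host mRNAs were not measured in these libraries, so no level of Ctdsp1, Ctdsp2 or Ctdspl stands beside these values.

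The libraries were compared with each other by a two-sided exact binomial test for each gene, with p-values adjusted by Benjamini-Hochberg over all 364 genes that had at least 10 counts in sum. This compares 2 libraries of 1 group and not conditions. Of the genes tested, 165 (45.3%) had an adjusted p under 0.05, 110 (30.2%) higher in replicate 1 and 55 (15.1%) higher in replicate 2. Of the 3 miR-26 genes, 1 was called. The split of calls turned with scaling, to 70 and 104 with TMM factors (edgeR) and to 65 and 107 with DESeq2 size factors, both computed over all genes. With factors from the genes with at least 10 counts, a restriction chosen after the all-gene values were seen, it was 90 and 76 with TMM and 80 and 94 with DESeq2.

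Mir26b was the member called, with the smallest difference of the 3. Its log2 ratio of replicate 2 over replicate 1 was -0.07 (exact 95% interval -0.09 to -0.06, adjusted p = 7.51e-21 by the exact binomial test), that is 1.05-fold higher in replicate 1. With TMM factors the ratio was 0.10 (adjusted p = 8.76e-40, exact binomial test) and with DESeq2 size factors 0.13 (adjusted p = 4.44e-60), that is called in the opposite direction. With the factors from genes with at least 10 counts it was 0.0043 by TMM (adjusted p = 0.718, exact binomial test) and 0.05 by DESeq2 (adjusted p = 1.24e-10). Neither the direction nor the call therefore holds across scalings. From 324 detected genes, edgeR put the biological coefficient of variation of the 2 libraries at 24.5%, which is an SD of 0.50 for a log2 ratio. The Mir26b difference lay well within it, and 54 of the 364 tested genes had a ratio no larger in size. The median ratio of detected genes was -0.15, which TMM factors moved by 0.18 and DESeq2 size factors by 0.20.

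Neither Mir26a copy passed the test. Mir26a-2 had a log2 ratio of 0.22 (interval -0.21 to 0.68, adjusted p = 0.469, exact binomial test). Mir26a-1 had a log2 ratio of -1.18 (interval -2.34 to 0.08, adjusted p = 0.0846, exact binomial test). Both intervals include 0. With 28 counts in both libraries together, a difference of 2-fold in Mir26a-1 could not be told from none at this depth.

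**Figure D4:**
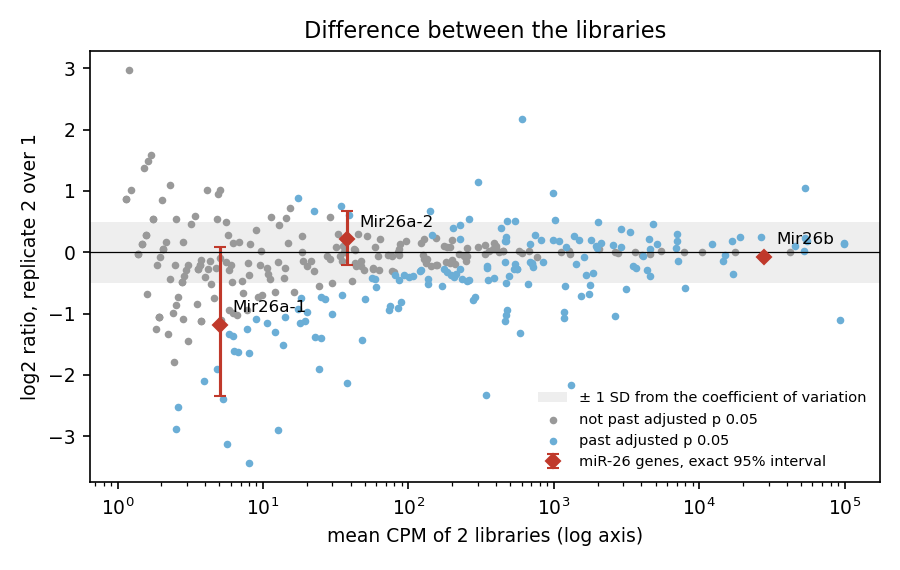
Log2 ratio of replicate 2 over replicate 1 (y axis) against mean CPM (log x axis) for the 364 tested genes; blue genes passed adjusted p 0.05, the grey band is 1 SD of 0.50 from the coefficient of variation, and diamonds with exact 95% intervals are the miR-26 genes. Mir26b and Mir26a-2 lie in the band at -0.07 and 0.22, and Mir26a-1 lies below it at -1.18 with an interval that reaches above 0.

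Several markers of tissue makeup differed between the libraries, and not all members of a list in the same direction. The 9 skeletal muscle genes summed to 36362 CPM in replicate 1 and 74995 in replicate 2, most of it Mir206. Of the 9, 5 were called higher in replicate 2 and 2 in replicate 1, and their median log2 ratio was 0.16. Beside these and the calls below, 15.1% of the 364 tested genes were called higher in replicate 2 and 30.2% in replicate 1, a split that turned with scaling. Those higher in replicate 1 were Mir1a-2, with a log2 ratio of -0.25, and Mir133a-2, with -1.91, while Mir133b at -0.07 did not pass the test. TMM and DESeq2 factors over all genes move every ratio up by 0.18 and 0.20, so the Mir1a-2 call is given for scaling by library totals only. The 5 smooth muscle and fibroblast genes summed to 132824 and 63364 CPM, of which Mir143 made up 127590 and 59272. Of the 4 tested, Mir143 and Mir145a were called higher in replicate 1, with log2 ratios of -1.11 and -1.04, and Mir214 was called higher in replicate 2, at 0.49. The 2 red blood cell genes summed to 2703 and 587 CPM, and the 9 epithelial genes to 511 and 250. The single endothelial gene, Mir126a, had 93328 and 103367 CPM, and the 4 white blood cell genes summed to 2701 and 2002. The 7 nerve genes summed to 1581 and 750 CPM, with Mir124a-1, Mir124a-2, Mir124a-3 and Mir9-2 at 0 in both. Reads that aligned to several places were given to no gene. Low counts or 0 for genes with copies, such as those of Mir124a, Mir9, Mir1a and Mir133a, therefore do not measure the mature microRNA or show its absence. The part of tissue makeup in the levels of the miR-26 genes was not tested.

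Other microRNAs known to repress Ezh2 formed a list with the miR-26 genes: Mir101a, Mir101b, Mir101c and Mir214. Mir101a had 353 CPM in replicate 1 and 358 in replicate 2, a log2 ratio of 0.02 that did not pass the test (adjusted p = 0.888, exact binomial test). Mir101b, in an intron of Rcl1, had 1508 and 1328 CPM and was called higher in replicate 1, with a log2 ratio of -0.18 (adjusted p = 5.03e-07, exact binomial test). TMM and DESeq2 factors over all genes move every ratio up by 0.18 and 0.20, about the size of this one. The Mir101b call is therefore given for scaling by library totals only. Mir214, a microRNA that also marks fibroblasts, had 1674 and 2355 CPM and was called higher in replicate 2, with a log2 ratio of 0.49. Mir101c had no count in replicate 1 and 1 in replicate 2. Of the 6 list genes tested, 2 were called higher in replicate 1 and 1 in replicate 2, and their median log2 ratio was -0.03, beside 45.3% called and a median of -0.15 over the 364 tested genes. The 2 were Mir26b, whose call did not hold across scalings, and Mir101b. Mir26b held most of the list, 28562 of 32138 CPM in replicate 1 and 27119 of 31204 CPM in replicate 2.

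Genes whose levels lay nearest to each miR-26 gene were found by distance in log2(CPM + 1) over the 2 libraries, which describes level and no shared control. Nearest to Mir26b were Mir99a, at 28049 and 26305 CPM (distance 0.0511), and Mir127, at 24432 and 29005 CPM (0.245), followed by Mir411 (0.806) and Mirlet7i (0.853). Mir99a is a relative of Mir100 in a cluster with let-7, and Mir127 belongs to the imprinted Dlk1-Dio3 cluster. Nearest to Mir26a-2 were Mir32, at 34.3 and 39.8 CPM, and Mir370, at 34.3 and 37.0 CPM. Nearest to Mir26a-1 were Mir218-2, at 6.99 and 3.32 CPM, and Mir429, at 8.26 and 3.32 CPM. Like the Mir26a copies, Mir218-2 and Mir32 lie in introns, of Slit3 and Tmem245.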

How the data were processed

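The authors deposited, for each library, a table without header of raw read counts per microRNA gene, on either strand, on the gene strand and on the opposite strand; the meaning of the columns was read from the values. The assembly was mm10 per the labels and the annotation GENCODE M21 per the deposited readme files, with aligner, counter and filters not given in the sources used here. Sense counts were used, scaled to 1000000 over all gene rows, and the 4 tally rows stayed out. All reads were taken as gene counts plus the tallies of unaligned reads, reads aligned to several places and reads outside genes. These tallies made up 78.1% of all reads on average. The remaining tally row was not in that sum. Detection meant 2 CPM in both libraries. Ratios used an offset of 0.5 counts. Symbols, positions and hairpins came from GENCODE M21, mature sequences from RefSeq (GRCm38.p6).

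On simulated counts for this comparison (367 genes tested), the exact binomial test called 63.9% of 61 changed 1.5-fold, 84.1% of 63 changed 3-fold and 0.823% of 243 unchanged. These counts were drawn with Poisson error only, and the test was given the true scaling. The rates therefore do not cover spread between libraries or the choice of scaling, and do not apply to the calls on the real libraries. The members and lists were chosen with earlier results of these data known. Named were the miR-26 genes, their 4 or 2 nearest genes by level, the Ezh2 list, the extreme families and list genes given beside a member. Alternatives were the column that ignores strand, a denominator of all aligned reads, other offsets, TMM and DESeq2 scaling, no filter, other family summaries and each replicate left out. Intronic genes were defined by the host's principal transcript; this was chosen after 2 stricter definitions, of 772 and 741 genes, were seen to leave out Mir26a-2. Over all genes the DESeq2 size factors stood in a ratio of exactly 3, with 107 of the 470 genes counted in both libraries under 10 counts in sum. Factors over genes with at least 10 counts were therefore added after the data were examined. Tools were R 4.3.3, edgeR 4.0.16, DESeq2 1.42.0, Python 3.11.15, pandas 2.3.3, numpy 2.4.6, scipy 1.17.1, matplotlib 3.10.9 and RNAfold 2.7.2.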

Additional observations from a re-analysis of the deposited data

Results flagged for a closer look

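The tally of reads with several alignments held 68.6% of the reads of replicate 1. In replicate 2 it held 69.7%. They were noted because they lie outside the counts compared here and far exceed the level that a count of 0 allows; how many of them hold miR-26a-5p is not recorded in the tally.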

How the results depend on the processing

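With all aligned reads as denominator the mean levels were 6566 CPM for Mir26b, 8.96 for Mir26a-2 and 1.19 for Mir26a-1. In the either-strand column, where fewer reads were given to genes in all, Mir26b had 36375 CPM and Mir26a-2 had 49.6, Mir26b ranked 2 among intronic genes, and miR-26 ranked 2 among the families. With the highest gene of each class in place of means the miR-26 ratio was 9.52. The Mir26b ratio between the libraries was 0.10 with TMM factors and 0.13 with DESeq2 size factors, against -0.07, and the genes called higher in replicates 1 and 2 numbered 70 and 104 with TMM and 65 and 107 with DESeq2, against 110 and 55. With both factors computed over genes with at least 10 counts, chosen after the data were examined, the Mir26b ratio was 0.0043 with TMM and 0.052 with DESeq2, and with DESeq2 94 genes were called higher in replicate 2. The cause was not tested. Beyond these values, the other alternatives of the listed results kept their direction and their side of the threshold, or stayed within 1 SD or 1.5 times. These include CPM per 1000 hairpin bases and the stricter definitions of intronic genes, also chosen after the data were examined; Mir26a-2 has no rank under the latter. Leaving out a replicate gave Mir26b at 27119 to 28562 CPM and a log2 ratio of Mir26b to the copies of 9.26 to 9.40. No paired analysis was possible because both libraries belong to 1 group. Depth limits Mir26a-1, on 11 and 17 counts.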
